A study of Mus musculus with 8 samples.

Results

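The 9 genes described here cause Usher syndrome or deafness when lost, and their proteins help to build the sensory hair bundle: *Clrn1*, *Myo7a*, *Ush1c*, *Ush1g*, *Cdh23*, *Pcdh15*, *Adgrv1*, *Whrn* and *Cib2*. They were found by symbol among 39017 genes of a table of raw read counts, and each symbol matched 1 row. They were chosen by a rule drawn up with earlier results of these data known, and the measured values behind it were the counts of *Clrn1* in mutant and wild type cells, which differed. The comparison of mutant with wild type is therefore given for the 9 genes as a description, and nothing is supported with it. The cochlear nucleus, the first relay of the auditory pathway, was taken from C57BL/6 mouse embryos at E18.5, and its fluorescent cells were sorted for RNA. The 4 mutant libraries carried Math1::Cre, Rosa tdTomato, Hoxa2+/fl and Hoxb2fl/fl by their titles, although the design text gives the conditional *Hoxa2* allele as homozygous too. The 4 wild type libraries carried Math1::Cre and Rosa tdTomato alone. In both groups Cre was driven by *Math1* (*Atoh1*), which marks progenitors of the rhombic lip and also inner ear hair cells, so that the sort took cells with a history of *Math1* expression. Each library held 30000 cells pooled from 3 littermates, with a different mother for each library.

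Usher syndrome joins deafness with loss of vision. The proteins of its genes meet in the stereocilia of hair cells, where cadherin 23 and protocadherin 15 form the tip link, harmonin (*Ush1c*), Sans (*Ush1g*) and the motor myosin VIIa (*Myo7a*) anchor it, and the calcium-binding protein CIB2 works with the transduction channel. The adhesion receptor ADGRV1 and the scaffold whirlin (*Whrn*) belong to the ankle links at the base of the bundle, and clarin 1 (*Clrn1*) is a small membrane protein with several membrane-spanning segments. Outside the ear, mouse *Cdh23* and *Pcdh15* have been described in precursors of cortical interneurons, and mouse mutants of *Adgrv1* are prone to sound-induced seizures.

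The libraries held 24789043 to 51118195 counts. Levels are CPM, counts relative to the library total after TMM scaling, a factor that makes libraries comparable. Where genes are compared with each other the CPM is divided by the gene's width in kilobases as deposited by the authors. Libraries are called by group and heading number, mutant 1 to 4 and wild type 5 to 8. The targeted *Hoxb2* stood at 5.02 ± 1.49 CPM in mutant and 40.1 ± 4.41 CPM in wild type libraries (SD, n = 4 each; edgeR adjusted p = 3.76e-05). *Hoxa2* stood at 26.7 ± 15.7 CPM in mutant and 43.2 ± 11.0 CPM in wild type libraries, which did not pass (edgeR adjusted p = 0.506). All 14 listed markers of *Math1*-lineage excitatory neurons, *Atoh1*, *Barhl1* and *Slc17a6* among them, had enough reads to test. Only *Nhlh1* of them passed, as a fall, beside 0.215% of all tested genes. They summed to 5599 to 7286 CPM in mutant and 5488 to 6382 CPM in wild type libraries. *Zic1* made up 49.1% of this, at 2585 to 4222 CPM in mutant and 2182 to 3200 CPM in wild type libraries. The others summed to 2627 to 3065 CPM in mutant and 3181 to 3458 CPM in wild type libraries, with no overlap. Fold changes were negative for 10 of the 14. In mutant libraries 2 markers lay apart and lower, beside 2.94% of all tested genes, and 1 apart and higher, beside 3.23%. *Lhx2* was low, at 3.12 CPM in mutant and 3.75 CPM in wild type libraries. Of 16 hair cell markers 8 had too few reads to test, 6 are also in the lists of bundle genes used further on, and the list summed to 12.1 to 16.1 CPM in mutant and 12.9 to 20.9 CPM in wild type libraries. *Pou4f3*, a transcription factor that defines hair cells, had 0 counts in mutant 2 and in wild type 6 and 8, and at most 12 counts in any library.

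RefSeq promoters, 250 bases before to 50 bases after the start on GRCm38.p6, were found for 8 of the 9 genes, with 2 starts for *Myo7a*. Those of *Clrn1*, *Cdh23* and *Cib2* are shown, because *Clrn1* had separate groups, *Cdh23* alone held a Hox with Pbx motif, and *Cib2* had the highest level. Capitals mark the motifs searched on both strands, and the sequences run 5′ to 3′ on the strand of the gene, which is the minus strand for all 3 (chr3:58885163-58885462 for *Clrn1*, chr10:60696441-60696740 for *Cdh23* and chr9:54560141-54560440 for *Cib2*).
Clrn1: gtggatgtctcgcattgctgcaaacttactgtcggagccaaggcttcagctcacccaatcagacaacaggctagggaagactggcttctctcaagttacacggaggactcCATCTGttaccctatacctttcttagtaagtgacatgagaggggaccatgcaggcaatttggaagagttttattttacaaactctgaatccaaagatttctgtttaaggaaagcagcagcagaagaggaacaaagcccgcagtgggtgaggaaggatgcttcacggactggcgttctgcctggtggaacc
Cdh23: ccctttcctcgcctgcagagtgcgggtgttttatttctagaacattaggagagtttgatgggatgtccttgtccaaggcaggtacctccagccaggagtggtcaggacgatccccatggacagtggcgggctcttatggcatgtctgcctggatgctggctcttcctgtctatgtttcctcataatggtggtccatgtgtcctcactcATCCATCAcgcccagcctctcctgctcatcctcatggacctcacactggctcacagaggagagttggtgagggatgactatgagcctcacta
Cib2: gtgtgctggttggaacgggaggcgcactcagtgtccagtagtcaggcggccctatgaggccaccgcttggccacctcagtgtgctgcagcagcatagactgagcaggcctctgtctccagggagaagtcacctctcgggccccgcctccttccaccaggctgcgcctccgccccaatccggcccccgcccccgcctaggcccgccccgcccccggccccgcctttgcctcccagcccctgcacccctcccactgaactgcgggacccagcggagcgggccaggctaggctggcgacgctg

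The letters searched were TGATNNAT for Hox with Pbx, TGACAG for Meis, TAATTA for homeodomains, and CAGCTG and CAGATG for the E boxes that *Atoh1* and related factors bind. No window held more than 1 match, so no matches overlapped. *Clrn1* held CATCTG, the reverse complement of CAGATG, 140 bases before the start, a motif found in 17.2% of all 32851 RefSeq promoters. *Cdh23* held ATCCATCA, the reverse complement of a TGATNNAT match, 42 bases before the start, against 8.85% of all promoters. CAGCTG, in 16.3% of all promoters, lay 13 and 42 bases after the 2 starts of *Myo7a* and 8 bases after that of *Pcdh15*, a start that lies inside the GENCODE span of the gene. TGACAG and TAATTA, in 19.2% and 5.29% of all promoters, were not found in these windows. The promoters of *Whrn* and *Cib2* had the highest G and C content of the 8 genes, 70.0% and 71.3%, and held 29 and 20 CpG dinucleotides. The other promoters held 5 to 14, beside a median of 7 over all promoters.

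*Cib2* stood far above the other genes, and *Cdh23*, *Ush1c* and *Ush1g* were the lowest. Per kilobase, *Cib2* averaged 25.0 ± 5.91 CPM in mutant and 15.1 ± 4.21 CPM in wild type libraries (SD, n = 4 each, as for the values that follow), in wild type above 89.4% of the 34724 genes with any read. *Whrn* averaged 2.01 ± 0.484 CPM per kilobase in mutant and 1.87 ± 0.42 in wild type libraries. *Pcdh15* averaged 0.849 ± 0.327 in mutant and 1.50 ± 0.74 in wild type libraries, and *Clrn1* averaged 0.508 ± 0.0608 in mutant and 1.38 ± 0.216 in wild type libraries.

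*Myo7a* and *Adgrv1* lay near the wild type median of 0.498 CPM per kilobase over genes with any read. *Myo7a* averaged 1.47 ± 0.569 CPM per kilobase in mutant and 0.50 ± 0.461 in wild type libraries, and *Adgrv1* averaged 0.326 ± 0.113 in mutant and 0.498 ± 0.138 in wild type libraries. The lowest levels were those of *Cdh23* at 0.129 ± 0.0247 in mutant and 0.134 ± 0.033 in wild type libraries, *Ush1c* at 0.059 ± 0.0385 in mutant and 0.121 ± 0.079 in wild type libraries, and *Ush1g* at 0.0461 ± 0.029 in mutant and 0.0729 ± 0.0687 in wild type libraries. The wild type median of the 19494 genes with enough reads to test was 3.89 CPM per kilobase, and *Cib2* alone of the 9 had a mean above it.

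In the order of mutant means, *Cib2*, *Whrn*, *Myo7a*, *Pcdh15*, *Clrn1*, *Adgrv1*, *Cdh23*, *Ush1c* and *Ush1g*, neighbours had separate ranges between *Cib2* and *Whrn*, between *Adgrv1* and *Cdh23* and between *Cdh23* and *Ush1c*. In wild type libraries *Myo7a* came after *Pcdh15* and *Clrn1*, the rest of the order was the same, and ranges were separate between *Cib2* and *Whrn*, between *Clrn1* and *Myo7a* and between *Adgrv1* and *Cdh23*. The other neighbours overlapped. The deposited width of *Pcdh15*, 18453 bases, is shorter than the 23773 bases of its merged exons in GENCODE M21, and its level per kilobase would be lower by that ratio.

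**Figure D1:**
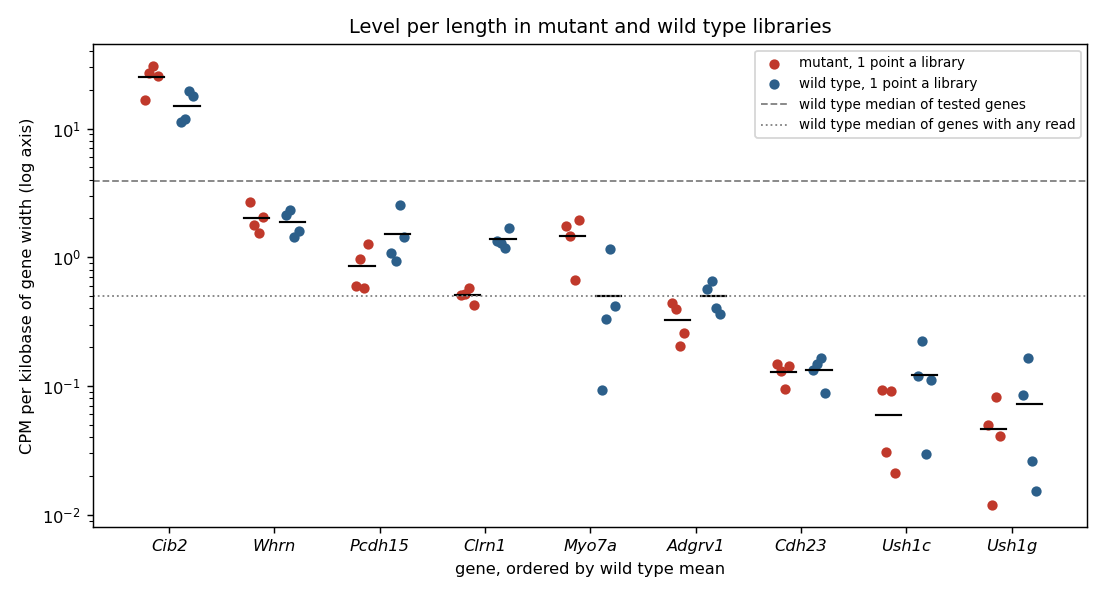
Level per length of the 9 genes, in CPM per kilobase of deposited width on a log axis, with mutant libraries in red left of wild type libraries in blue, 1 point per library and a line at each mean. *Cib2* lies above the wild type median of tested genes (3.89) in every library, and *Cdh23*, *Ush1c* and *Ush1g* lie below the median of genes with any read (0.498) in every library.

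The 2 scaffold genes of the tip link were near the detection limit. *Ush1c* (ENSMUSG00000030838, chromosome 7, 46195350 to 46238503, mm10) had 11, 3, 18 and 3 counts in mutant 1 to 4 and 18, 22, 4 and 17 counts in wild type 5 to 8. *Ush1g* (ENSMUSG00000045288, chromosome 11, 115315192 to 115322041) had 5, 1, 14 and 5 counts in mutant 1 to 4 and 11, 14, 3 and 2 counts in wild type 5 to 8. Neither gene was absent from any library, but *Ush1c* was at or under 3 counts in 2 libraries and *Ush1g* in 3. For a count of 0 the upper limit of the level was set at 3 counts. Without TMM this was 0.0587 CPM at the deepest library (mutant 3) and 0.121 CPM at the shallowest (wild type 6). A level under this limit can still give reads. In mutant 2, where the limit was 0.114 CPM, *Ush1g* was seen with 1 count, or 0.038 CPM without TMM. For *Ush1g* mutant 2, the lowest library, had an exact 95% Clopper-Pearson interval of 0.000963 to 0.212 CPM without TMM, and wild type 6, the highest, of 0.309 to 0.948 CPM. These intervals cover counting error only, because PCR copies of 1 molecule are not independent.

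*Ush1g* failed the filter on low counts and has no fold change here, and its summed counts were 25 in mutant and 30 in wild type libraries. It overlaps *Otop2* on the other strand, with no exonic base shared. *Ush1c* averaged 0.227 ± 0.148 CPM in mutant and 0.466 ± 0.304 CPM in wild type libraries (SD, n = 4 each), a log2 fold change of -0.96 (SE 0.633) that ran from -1.29 to -0.49 over the alternatives, with -0.53 when wild type 6 was left out. Its groups overlapped through wild type 7 alone, which lay at 0.114 CPM (4 counts), below mutant 1 at 0.36 CPM. The other wild type libraries, at 0.43 CPM or more, lay above all mutant libraries.

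Of the 9 genes 8 were tested, and 1, *Clrn1*, passed an edgeR adjusted p of 0.05, as a fall, beside 0.359% of all tested genes in either direction and 0.215% as a fall. Of the 8, *Clrn1* was also the only gene whose groups did not overlap, beside 6.17% of all tested genes (3.23% higher and 2.94% lower in mutant libraries). These counts come from the contrast that brought *Clrn1* into view and are read no further. The median log2 fold change was -0.33 over the 8 genes and -0.01 over all tested genes, with 3 of the 8 positive and 5 negative.

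**Figure D2:**
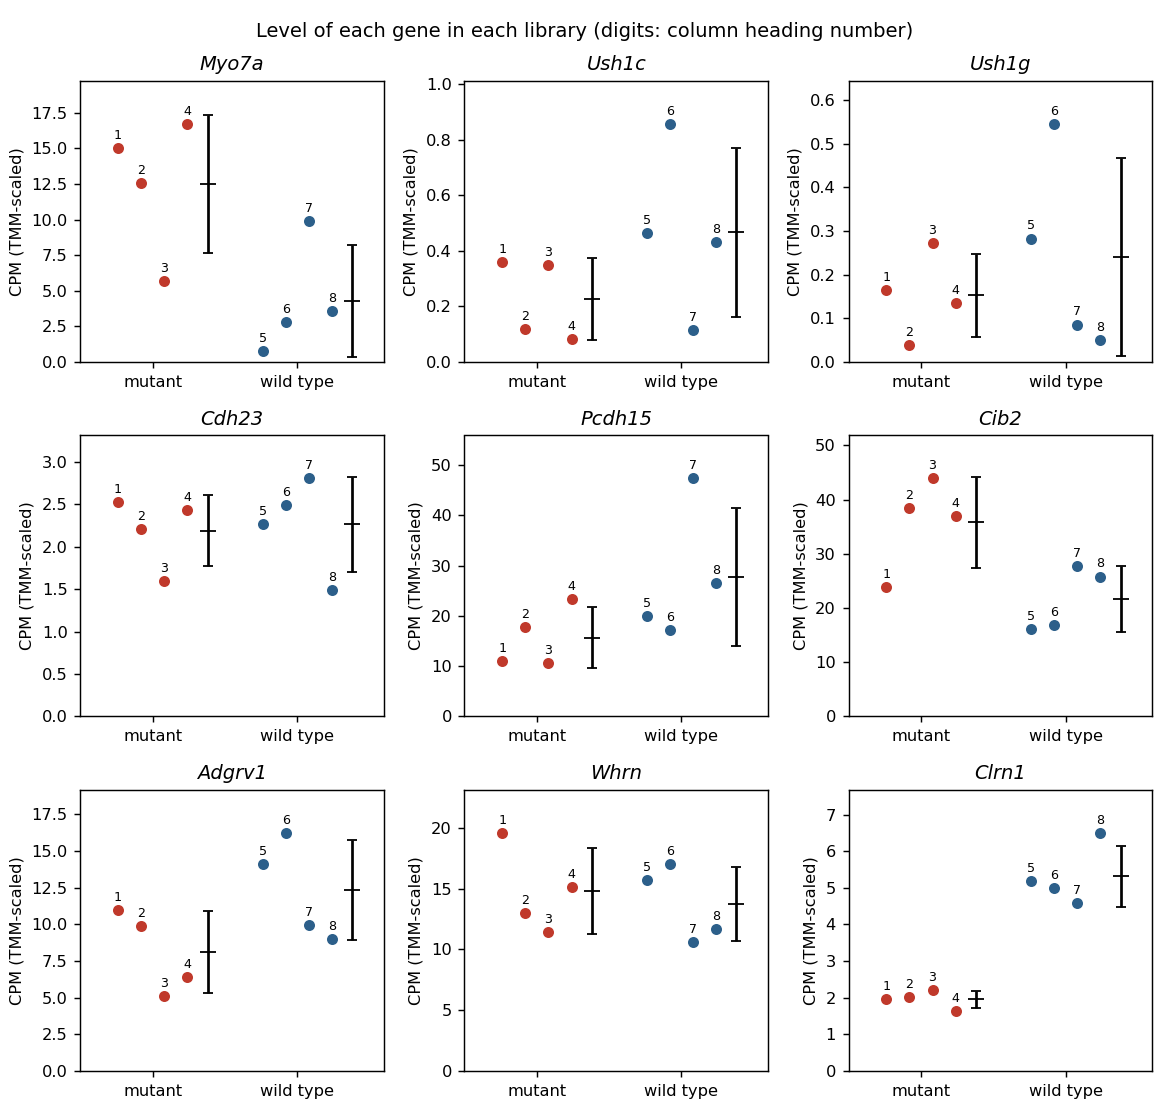
CPM of each of the 9 genes in each library, with mutant (red) left of wild type (blue), digits giving the heading number, and a black mark for mean and SD over 4 libraries. Each axis starts at 0 and has its own scale. The groups of *Clrn1* are separate, at most 2.21 CPM in mutant and at least 4.58 CPM in wild type libraries, and those of the other 8 genes overlap.

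*Clrn1* (ENSMUSG00000043850, chromosome 3, 58844028 to 58885340, minus strand, 4 merged exons), the gene of Usher syndrome type 3, had 60, 51, 114 and 61 counts in mutant 1 to 4 and 202, 128, 160 and 257 counts in wild type 5 to 8. As CPM these were 1.96, 2.01, 2.21 and 1.65 in mutant 1 to 4 and 5.19, 4.98, 4.58 and 6.50 in wild type 5 to 8. Every mutant library lay below every wild type library. The mutant mean, 1.96 ± 0.234 CPM, was 36.9% of the wild type mean, 5.31 ± 0.834 CPM (SD, n = 4 each). The log2 fold change was -1.44 (SE 0.202), with an edgeR adjusted p of 0.0106 that belongs to the values by which the gene was chosen. The call ended without mutant 4 (log2 fold change -1.36, edgeR adjusted p = 0.0527) and without wild type 8 (-1.32, edgeR adjusted p = 0.0511), and over 18 alternatives the adjusted p ran from 1.69e-08 to 0.0527.

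*Clrn1* was also even within groups. Its SD of log2 CPM within groups, 0.195, was higher than that of 11% of the 500 tested genes nearest to it in level. No other gene of the table overlaps it. The exact 95% intervals of single libraries reached up to 2.68 CPM without TMM in mutant 3 and down to 3.92 CPM in wild type 7. They cover counting error only. The evenness and the gap between these intervals both come from the counts by which the gene was chosen, and nothing is supported with them. Its paralogs *Clrn2* and *Clrn3* were near the detection limit, with at most 7 and 19 counts in any library, and neither was tested.

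Of the marker lists of 9 other cell types, that of microglia held a called gene, a fall, beside 0.215% of all tested genes. Of its 5 markers 4 were tested and *C1qa*, a complement gene, fell to 0.203 ± 0.104 CPM in mutant libraries, against 2.36 ± 1.19 CPM in wild type libraries (SD, n = 4 each), or -3.45 on a log2 scale (SE 0.50), at an edgeR adjusted p of 0.0115. The microglia list summed to 10.6 to 16.4 CPM in mutant and 14.7 to 19.8 CPM in wild type libraries, of which *Csf1r* made up 74.2%. The other 4 microglia genes summed to 0.827 to 1.64 CPM in mutant and 3.62 to 9.70 CPM in wild type libraries, with no overlap. None of 8 tested hair cell markers passed, and 6 had a negative fold change. Among them 1, *Strc*, lay apart and lower, at 0.236 to 0.378 CPM in mutant and 0.658 to 1.67 CPM in wild type libraries. *Chrna9*, *Ocm* and *Cabp2* had, like *Pou4f3*, 0 counts in some libraries. None of 6 tested otic epithelium markers passed, and all 6 were negative, with sums of 4.84 to 8.77 CPM in mutant and 6.40 to 13.2 CPM in wild type libraries. No tested marker passed of choroid plexus (9 genes), ependymal cells (6), photoreceptors (4), cranial ganglion neurons (8), astrocytes and radial glia (6) or inhibitory neurons (5). The fold changes were negative for 5 of 9 choroid plexus, 3 of 6 ependymal, 4 of 4 photoreceptor, 6 of 8 cranial ganglion, 5 of 6 astrocyte and radial glia, 3 of 4 microglia and 0 of 5 inhibitory neuron markers. Of these, 2 microglia and 1 choroid plexus markers lay apart and lower in mutant libraries, as did 2.94% of all tested genes. In the inhibitory neuron list 1 marker, *Slc6a5*, lay apart and higher, as did 3.23% of all tested genes. It was at 24.4 to 36.1 CPM in mutant and 8.80 to 21.6 CPM in wild type libraries. Of the choroid plexus list *Otx2* alone made up 91.4%, at 450 to 609 CPM in mutant and 490 to 810 CPM in wild type libraries, and the other 9 genes summed to 43.0 to 82.6 CPM in mutant and 35.5 to 56.1 CPM in wild type libraries. The ependymal list summed to 39.2 to 46.5 CPM in mutant and 39.1 to 48.7 CPM in wild type libraries, of which *Ccdc39* made up 71.7%. The photoreceptor list summed to 2.21 to 3.37 CPM in mutant and 3.06 to 8.22 CPM in wild type libraries, and the cranial ganglion list to 224 to 280 CPM in mutant and 184 to 255 CPM in wild type libraries. *Ntrk2* made up 77.7% of the cranial ganglion list, and its other genes summed to 41.3 to 66.1 CPM in mutant and 46.85 to 66.0 CPM in wild type libraries. The astrocyte and radial glia list summed to 191 to 454 CPM in mutant and 300 to 418 CPM in wild type libraries, and the inhibitory neuron list to 44.3 to 102 CPM in mutant and 30.9 to 58.1 CPM in wild type libraries. The part of these cells in the level of *Clrn1* was not tested. In RNA of sorted bulk cells, fewer cells that express a gene and less RNA of it per cell cannot be told apart.

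*Myo7a* (ENSMUSG00000030761, chromosome 7, 98051060 to 98119524), the motor that holds the tip link under tension, was uneven within groups. Its level was 15.0, 12.6, 5.69 and 16.7 CPM in mutant 1 to 4 and 0.797, 2.80, 9.90 and 3.57 CPM in wild type 5 to 8. Wild type 7 lay above mutant 3, and the other mutant libraries lay above all wild type libraries. The highest wild type library held 12.4 times the level of the lowest, and the SD of log2 CPM within groups, 1.14, was higher than that of 99.2% of the 500 tested genes of nearest level. The means were 12.5 ± 4.85 CPM in mutant and 4.27 ± 3.93 CPM in wild type libraries (SD, n = 4 each), a log2 fold change of 1.55 (SE 0.651) that ran from 0.79 to 2.39 over the alternatives.

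The tip link cadherins differed in level and in spread. *Cdh23* (ENSMUSG00000012819, chromosome 10, 60302748 to 60696490) was at 2.52, 2.21, 1.59 and 2.43 CPM in mutant 1 to 4 and 2.26, 2.49, 2.80 and 1.49 CPM in wild type 5 to 8, so that the groups covered nearly the same range. Its log2 fold change was -0.05 (SE 0.26), and its sign turned in 3 of 18 alternatives. *Vsir* and *Gm17455* overlap its span on the other strand, with no exonic base shared.

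*Pcdh15* (ENSMUSG00000052613, chromosome 10, 73099342 to 74649737) was at 11.1, 17.7, 10.5 and 23.3 CPM in mutant 1 to 4 and 19.9, 17.2, 47.4 and 26.5 CPM in wild type 5 to 8. Wild type 7 stood apart at the top, and mutant 2 and 4 lay within the wild type range. The means were 15.7 ± 6.03 CPM in mutant and 27.8 ± 13.7 CPM in wild type libraries (SD, n = 4 each), a log2 fold change of -0.83 (SE 0.359), and -0.44 when wild type 7 was left out. *Gm15398*, *Gm5778*, *Gm15397* and *Gm6407* overlap its span with no exonic base shared.

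*Cib2* (ENSMUSG00000037493, chromosome 9, 54544794 to 54560218) was the most abundant of the genes per length in every library. Its level was 23.9, 38.4, 43.9 and 36.9 CPM in mutant 1 to 4 and 16.1, 16.9, 27.8 and 25.8 CPM in wild type 5 to 8. Only mutant 1 lay within the wild type range, below wild type 7 and 8. The means were 35.8 ± 8.47 CPM in mutant and 21.6 ± 6.04 CPM in wild type libraries (SD, n = 4 each), a log2 fold change of 0.73 (SE 0.221). It passed the threshold in 1 of 18 alternatives, without mutant 1 (log2 fold change 0.88, edgeR adjusted p = 0.0365), and the adjusted p over the alternatives ran from 0.0365 to 0.599. *Cib2* shares 227 exonic bases with *Sh2d7* on the other strand, which was at 4.52, 8.11, 8.20 and 8.07 CPM in mutant 1 to 4 and 2.88, 2.57, 5.55 and 3.90 CPM in wild type 5 to 8. As the counting is not stated to have kept the strand, reads in the shared bases cannot be assigned to either gene. Its paralog *Cib1* stood at 8.42 ± 0.448 CPM in mutant and 8.94 ± 1.84 CPM in wild type libraries (SD, n = 4 each), while *Cib3* and *Cib4* had at most 8 and 7 counts in any library.

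Of the ankle link genes, *Adgrv1* (ENSMUSG00000069170, chromosome 13, 81095068 to 81633154) was at 11.0, 9.89, 5.09 and 6.37 CPM in mutant 1 to 4 and 14.1, 16.2, 9.95 and 9.01 CPM in wild type 5 to 8. Mutant 3 and 4 lay below all wild type libraries, and mutant 1 and 2 lay within their range. The means were 8.08 ± 2.80 CPM in mutant and 12.3 ± 3.42 CPM in wild type libraries (SD, n = 4 each), a log2 fold change of -0.61 (SE 0.266). The antisense gene *9330111N05Rik* overlaps the span of *Adgrv1* with no exonic base shared and stood at 0.502 CPM in mutant and 0.837 CPM in wild type libraries.

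*Whrn* (ENSMUSG00000039137, chromosome 4, 63414910 to 63495991) was at 19.6, 13.0, 11.4 and 15.1 CPM in mutant 1 to 4 and 15.7, 17.0, 10.6 and 11.7 CPM in wild type 5 to 8. The groups overlapped almost fully, with means of 14.8 ± 3.55 CPM in mutant and 13.7 ± 3.08 CPM in wild type libraries (SD, n = 4 each). Its log2 fold change was 0.11 (SE 0.202) and turned to -0.06 without mutant 1.

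**Figure D3:**
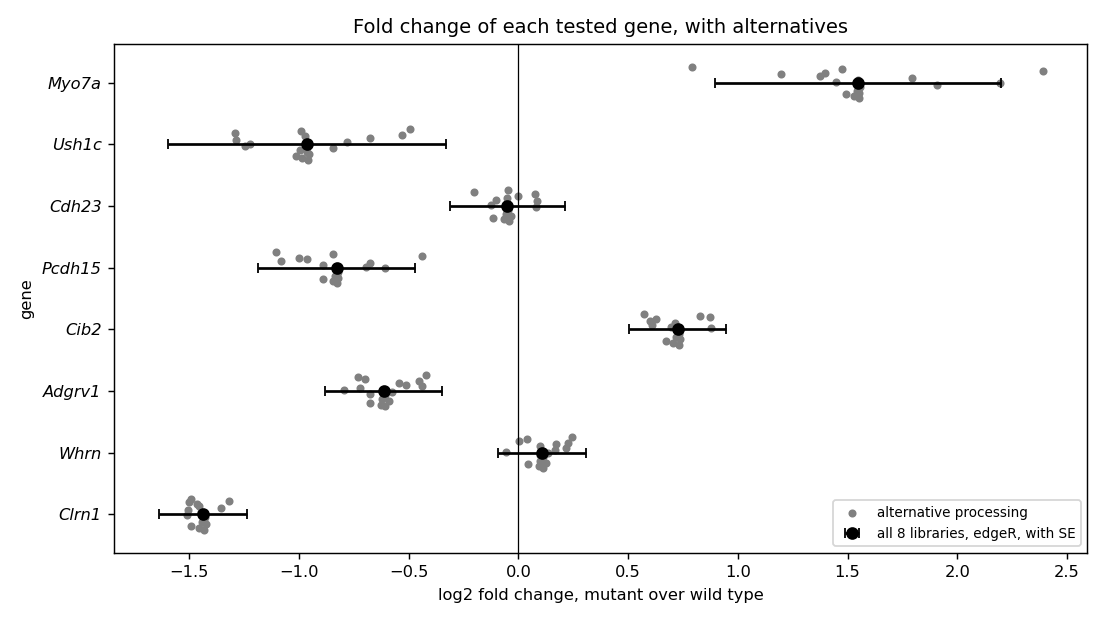
Log2 fold change of mutant over wild type for the 8 tested genes, with the edgeR value and its SE in black and the alternatives in grey (18 for each gene, 17 for *Ush1c*). *Clrn1* stays between -1.51 and -1.32, *Myo7a* ranges from 0.79 to 2.39, and the values of *Cdh23* and *Whrn* lie on both sides of 0.

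Within groups some of these genes moved against each other. Deviations of log2 CPM from the group mean, over 8 libraries, gave a Pearson r of -0.97 for *Whrn* with *Cib2*, -0.82 for *Adgrv1* with *Cib2* and 0.79 for *Adgrv1* with *Whrn*. Of 36 pairs among the 9 genes 16 were positive and 20 negative, with a median of -0.22. The r of -0.98 between *Ush1c* and *Pcdh15* rests on 3 to 22 counts per library for *Ush1c*. All pairs share the same 8 libraries and their depth, and the values are a description.

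The opposite movement can be seen in single libraries. The ratio of *Cib2* to *Whrn* CPM was 1.22, 2.95, 3.86 and 2.44 in mutant 1 to 4 and 1.02, 0.993, 2.63 and 2.21 in wild type 5 to 8. The 3 lowest ratios, in mutant 1 and wild type 5 and 6, were in the libraries with the most *Atoh1*, the gene named in the Cre driver. *Atoh1* was at 134, 28.5, 51.0 and 32.7 CPM in mutant 1 to 4 and 89.1, 154, 57.5 and 59.3 CPM in wild type 5 to 8. Its part in the ratio was not tested. These 3 libraries are set apart by values of the same data, and without them mutant 2 to 4 and only wild type 7 and 8 remained. In that smaller set the log2 fold change was 0.57 for *Cib2*, 0.25 for *Whrn*, -0.42 for *Adgrv1*, -1.11 for *Pcdh15* and 0.79 for *Myo7a*, and none of these 5 passed.

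**Figure D4:**
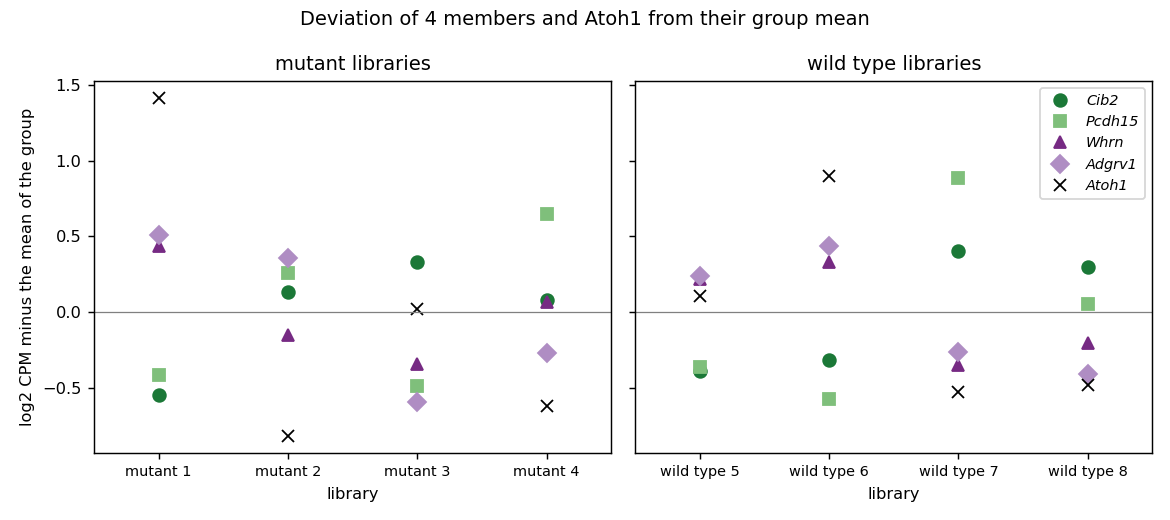
Deviation of log2 CPM from the group mean for *Cib2*, *Pcdh15*, *Whrn*, *Adgrv1* and *Atoh1*, in mutant libraries on the left and wild type libraries on the right. In mutant 1 and in wild type 5 and 6, *Whrn* and *Adgrv1* lie above 0 and *Cib2* and *Pcdh15* below it, and *Atoh1* has its 3 highest CPM there (134, 89.1 and 154).

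The genes closest in pattern to *Clrn1* by these deviations were *Rnf139* (r = 0.98), *Glipr2* (0.97) and *Tmem219* (0.97), among 11816 tested genes with a mean log2 CPM of at least 1. Closest to *Cib2* were *Mapk8* (r = 0.997), *Gpr75* (0.99) and *Pcp4* (0.99), and closest to *Whrn* were *Sun2*, *Top3a* and *Palb2* (r = 0.99 each). These are the 3 highest of 11816 values for each gene, over 8 shared libraries, and carry no test.

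Other genes of the hair bundle were examined in 5 lists of related genes, in which 87 of 102 listed genes were tested. The lists were set with earlier results known, among them those of *Cdhr1* and *Calml4*. The values and calls of *Cdhr1* and *Calml4* are therefore given as a description, and nothing is supported with them. In all, 1 rose and 1 fell by edgeR, beside 0.144% and 0.215% of all tested genes, 11 (12.6%) had an unadjusted p under 0.05, beside 12.5% of all tested genes, and the median log2 fold change was -0.03. Both calls were in the list of paralogs and brush border partners, with 13 listed and 7 tested genes and a median of -0.57, where the other 5, *Cib1* and *Myo10* among them, did not pass. Without mutant 1, *Myo10* and the actin-binding gene *Msn* of the stereocilia list were also called. *Calml4*, *Cib1* and *Myo10* had the highest level per length in wild type libraries, although the deposited width of *Calml4*, 861 bases, is far below the 3642 bases of its merged exons.

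*Calml4*, a calmodulin-like protein that joins the intermicrovillar adhesion complex of the gut brush border together with harmonin, was at 2.82, 1.61, 1.83 and 1.97 CPM in mutant 1 to 4 and 5.65, 6.07, 4.46 and 6.12 CPM in wild type 5 to 8. All mutant libraries lay below all wild type libraries. It fell to 2.06 ± 0.527 CPM in mutant libraries, against 5.58 ± 0.774 CPM in wild type libraries (SD, n = 4 each), or -1.44 on a log2 scale (SE 0.225), at an edgeR adjusted p of 0.0187. The call ended without mutant 2, 3 or 4 or wild type 5 or 8, at an adjusted p of up to 0.0929, and the range over the alternatives began at 3.37e-07.

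*Cdhr1*, a photoreceptor cadherin, was at 5.63, 10.2, 6.06 and 8.51 CPM in mutant 1 to 4 and 2.31, 3.00, 1.77 and 1.82 CPM in wild type 5 to 8. All mutant libraries lay above all wild type libraries. It rose to 7.60 ± 2.15 CPM in mutant libraries, against 2.23 ± 0.569 CPM in wild type libraries (SD, n = 4 each), or 1.77 on a log2 scale (SE 0.255), at an edgeR adjusted p of 0.011. The call ended without mutant 4 and without wild type 8 (adjusted p = 0.051 and 0.0534), over a range of 6.56e-09 to 0.0534. Apart from *Calml4*, the listed genes of the brush border complex did not pass or were not tested. *Cdhr2* stood at 2.76 CPM in mutant and 2.37 CPM in wild type libraries and *Myo7b* at 0.265 CPM in mutant and 0.543 CPM in wild type libraries, while *Cdhr5* and *Anks4b* had too few reads to test.

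Of the Usher partners and genes of Usher-like disease 10 of 11 were tested and none passed by edgeR, with a median log2 fold change of 0.00. The scaffold gene *Shank2* was at 37.3, 52.8, 27.0 and 46.8 CPM in mutant 1 to 4 and 14.4, 25.9, 26.3 and 21.6 CPM in wild type 5 to 8, so that the groups did not overlap, with mutant 3 and wild type 7 close together. It had 0.89 on a log2 scale (SE 0.23) at an edgeR adjusted p of 0.151, and passed with DESeq2 (0.0121) and with limma-voom and quality weights (0.0345). In the list 2 of 10 genes had an unadjusted p under 0.05, beside 12.5% of all tested genes, and *Hars*, *Vezt* and *Abhd12* had the highest level per length in wild type libraries. *Pdzd7*, a scaffold of the ankle links, was at 6.87 CPM in mutant and 6.62 CPM in wild type libraries, and the adherens junction protein *Vezt* at 166 CPM in mutant and 164 CPM in wild type libraries.

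In the transduction list 12 of 15 genes were tested, 0 passed by edgeR, 0 had an unadjusted p under 0.05 (12.5% of all tested genes did), 0 passed by DESeq2, and the median was 0.18. The channel gene *Tmc1* had 41, 44, 79 and 74 counts in mutant 1 to 4 and 55, 34, 88 and 77 counts in wild type 5 to 8. The highest per length in wild type libraries were the calcium pump *Atp2b2* at 9.09 in mutant and 7.95 CPM per kilobase in wild type libraries, *Tomt* at 2.73 in mutant and 2.68 in wild type libraries and the calcium channel *Cacna1d* at 2.18 in mutant and 1.72 in wild type libraries. On a log2 scale *Cacna1d* had 0.35 (SE 0.207) at an edgeR adjusted p of 0.51, and the mechanosensitive channel *Piezo2* had -0.71 (SE 0.445) at 0.528. Without wild type 6, where *Piezo2* stood at 3.31 CPM, its value was -0.11.

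Of 42 listed genes of stereocilia and of actin 37 were tested, and none passed by edgeR, with a median of -0.07. An unadjusted p below 0.05 was found for 3 (8.11%), beside 12.5% of all tested genes. *Actb*, *Actg1* and *Cdc42*, which every cell uses, were the most abundant. *Myo6*, a motor at the base of stereocilia that neurons also use, was at 27.1 ± 7.71 CPM in mutant and 44.7 ± 6.46 CPM in wild type libraries (SD, n = 4 each), or -0.72 on a log2 scale (SE 0.184), at an edgeR adjusted p of 0.142. It passed without mutant 1 (0.00907), with DESeq2 (0.024), with limma-voom and quality weights (0.0462) and without a filter on low counts (0.0336). *Strc*, stereocilin, was at 0.307 ± 0.0727 CPM in mutant and 0.942 ± 0.489 CPM in wild type libraries (SD, n = 4 each), or -1.59 on a log2 scale (SE 0.426), at an edgeR adjusted p of 0.161. Its groups did not overlap, and it passed with DESeq2 (0.0407).

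All 21 planar polarity and cilium genes were tested, and none passed by edgeR, with a median of -0.08 and 3 (14.3%) at an unadjusted p below 0.05, beside 12.5% of all tested genes. *Celsr1* had 0.53 on a log2 scale (SE 0.143) at an edgeR adjusted p of 0.161, and passed with DESeq2 (0.0431). The kinesin *Kif3a* had 0.59 (SE 0.206) at an edgeR adjusted p of 0.289. The most abundant per length were *Fzd3* at 32.6 CPM per kilobase in mutant and 39.5 in wild type libraries and *Celsr3* at 25.1 in mutant and 26.4 in wild type libraries, followed by *Celsr2*.

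**Figure D5:**
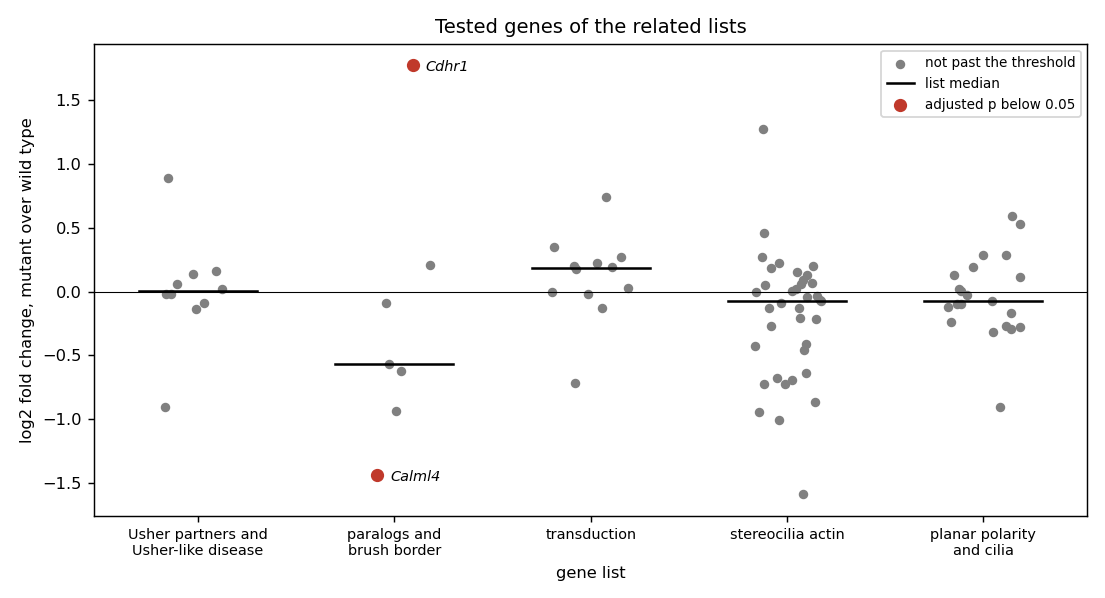
Log2 fold change of mutant over wild type for the tested genes of the 5 related lists, 1 point per gene, red where the edgeR adjusted p was below 0.05, with a line at each list's median. *Cdhr1* at 1.77 and *Calml4* at -1.44 are the red points, and the medians run from -0.57 to 0.18.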

How the data were processed

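The authors deposited raw read counts by Ensembl gene in 1 table of 8 libraries, with a width in bases per gene, which the file header does not define. Per the submitters' processing notes bcl2fastq 1.8.4 was used and the genome was mm10. The aligner, the counting program, the annotation and the strand setting are not given in the sources used here. Per the labels, 2 ng of RNA was amplified for 14 PCR cycles with poly-A and random primers and run on 3 lanes. Column headings gave the group but no replicate number of the titles, so columns were assigned to groups only. Symbols were matched for 37607 genes, and positions come from GENCODE M21 on the same assembly. The width equalled the merged GENCODE exons within 10% for 77.6% of the 37607 matched genes.

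Genes kept by filterByExpr were scaled by TMM and tested with edgeR 4.0.16 (quasi-likelihood, robust, Benjamini-Hochberg, threshold 0.05) in R 4.3.3, which was tested on simulated data. The biological coefficient of variation was 23.2%. SEs are the absolute log2 fold change over the square root of F. Log2 CPM used a prior count of 2. limma 3.58.1 and DESeq2 1.42.0 were alternatives. The members, lists and tests were chosen with earlier results of these data known. Named genes were the 9 members, and in each list those past the threshold, or else the 2 of smallest p, plus the 3 of highest level per length in wild type. *Clrn2*, *Clrn3*, *Cib3*, *Cib4*, *Cdhr2*, *Cdhr5*, *Anks4b*, *Myo7b*, *Pdzd7*, *Tmc1*, *Atoh1*, *Pou4f3*, *Nhlh1*, *Zic1*, *Lhx2*, *C1qa*, *Csf1r*, *Otx2*, *Ccdc39*, *Ntrk2*, *Slc6a5* and *Msn* were added after values were seen. A gene that the rule names is not reported here.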

Additional observations from a re-analysis of the deposited data

Results flagged for a closer look

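In 64 groups of 4 libraries, from 32 named genes, 2 had a library far from the other 3 by Dixon's gap, where chance gives about 1 in 20. *Strc* was at 1.67 CPM in wild type 6, against 0.658 to 0.72 CPM in the other wild type libraries. *Vezt* was at 184 CPM in wild type 7, against 156 to 159 CPM in the other wild type libraries. No group of the 9 genes described here was set apart in this way.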

How the results depend on the processing

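No paired analysis was possible because the column headings carry no replicate number shared between the groups. Of 70 genes called over the table, other settings gave 214 without a low-count filter, 497 with DESeq2, 233 with limma-voom and quality weights and 171 when mutant 1 and wild type 5 and 6 were all left out, and leaving out 1 library gave 26 (without mutant 4) to 544 (without mutant 1). Of the related genes 2 were called, against 6 with DESeq2, 4 with limma-voom and quality weights and 0 to 5 with 1 library left out. Of the 9 genes described 1 was called, and 0 to 2 with 1 library left out: 0 without mutant 4 or wild type 8, 2 (*Clrn1* and *Cib2*) without mutant 1. *Clrn1* kept its direction in 18 of 18 alternatives and its call in 16. As all its mutant libraries lay below all wild type libraries, leaving libraries out could not turn that direction. The contrast is also the one by which *Clrn1* was chosen, so these counts support nothing. *Piezo2* turned to 0.15 when mutant 1 and wild type 5 and 6 were all left out (edgeR adjusted p = 0.951, 0.379 to 0.951 over the alternatives). *Cdh23* turned to 0.08 without mutant 3, 0.08 without wild type 7 and 0.08 with quality weights, and *Whrn* to -0.06 without mutant 1. The causes were not tested. Scaled as TPM, the order of the 9 genes changed only between *Myo7a* and *Adgrv1* in wild type libraries (1.126 and 1.127 TPM). Depth limits *Ush1c* and *Ush1g*: the lowest library held 3 and 1 counts, and small changes there were not detectable at this depth.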
